A study of Paeonia lutea x Paeonia suffruticosa with 9 samples.

Results

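The transcripts described here had higher levels at each later stage of flower bud development in the tree peony cultivar ‘High Noon’. They numbered 193 of the 137758 transcripts in the deposited values (0.14%), of which 97447 had reads in any library. The deposited values hold more transcripts than the non-redundant ones counted in the paper, and the reason is not known. Whether several of the 193 belong to the same gene was not determined. Their levels were taken as x, the FPKM plus 1, where FPKM is the number of fragments of a transcript scaled for its length and for the fragments counted in the library. The set was chosen by these measured levels. A transcript was included when its lowest x of the 3 stage II libraries was at least 1.5 times its highest x of the 3 stage I libraries, and its lowest x of stage III was at least 1.5 times its highest x of stage II. A list of 26 transcripts of floral genes named by the study was to be left out, but no transcript of that list met both steps. The transcripts were ranked by the lowest x of stage III over the highest x of stage I. As this rule used all 9 libraries and all 3 stages, the differences between stages are given as a description and no p value is given.

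The buds came from plants of ‘High Noon’, a hybrid of Paeonia lutea and Paeonia suffruticosa. The sample labels give the plants an age of 5 years, the upper end of the range in the paper. Buds were sequenced at stage I (vegetative meristem, libraries S1_1 to S1_3), stage II (floral meristem, S2_1 to S2_3) and stage III (floral organ, S3_1 to S3_3). All 9 libraries came from the same cultivar and tissue, no treatment is given in the labels, and the buds, freed of the scales and leaves beside them, held many kinds of cells. The libraries had 20065002 to 25195520 counted fragments. Library S1_3 stood apart from its replicates. The chi-square per transcript was 69.4 between S1_3 and S1_1 and 73.3 between S1_3 and S1_2, against 15.9 between S1_1 and S1_2. The count of transcripts that met the rule and their share of FPKM are therefore also given without S1_3.

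A bud begins as a vegetative meristem, which forms leaves and scales. After the floral transition it becomes a floral meristem, and genes for organ identity then direct the formation of sepals, petals, stamens and carpels. Genes first used in the floral meristem may stay active, or become more active, while the organs grow and their cells take on special functions. The deposited values name each transcript by its long-read cluster and pair none of them with a gene name. The functions of the 193 transcripts are therefore not described, the stage labels could not be checked against marker genes among them, and they are called by their rank. The study itself identified the stages on paraffin sections of buds fixed in parallel. It also released an annotation of its transcripts apart from these values, which was not used here.

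The 1.5-fold first step, from stage I to II, was met by 7306 transcripts (5.3% of all), and the second step, from stage II to III, by 641 (0.465%). Of these, 7113 met the first step only and 448 the second only. In the opposite direction, 72 transcripts (0.0523%) met both steps. With no minimum size of step, 2744 transcripts (1.99%) had all libraries of stage II above those of stage I and all libraries of stage III above those of stage II. In these bulk samples, more cells of a type and more RNA per cell cannot be told apart.

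Leaving out a library can only add transcripts, as the 193 still meet both steps. Without S1_3, 245 transcripts met both steps, and 166 of the 193 were among the first 200 by rank. The number was 293 without S2_1, the largest change made by leaving out 1 library, and then 155 of the 193 were among the first 200 by rank.

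The levels of the 193 transcripts spanned a wide range within each stage. Their median FPKM per library was 0.77 to 1.56 at stage I, 11.4 to 13.6 at stage II and 39.0 to 42.8 at stage III. That the medians of the stages lie apart is set by the rule. The lowest of the 3 stage I values was that of S1_3. The mean FPKM of a transcript over its libraries was under 1 for 84 of the 193 at stage I and for 0 at stage II. At stage III it ranged from 3.13 to 12695 FPKM, with 7 transcripts under 5 FPKM, 98 at 5 to 50 FPKM and 88 over 50 FPKM, 11 of them over 1000 FPKM. The stage II mean was 36% of the stage III mean in the median transcript (range 3.61 to 54.9%). The stage I mean was 3.56% of the stage III mean in the median transcript (range 0 to 24.2%). In the order of all transcripts by mean FPKM, the median position of the set was 42088 at stage I, 12437 at stage II and 3710 at stage III.

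**Figure D1:**
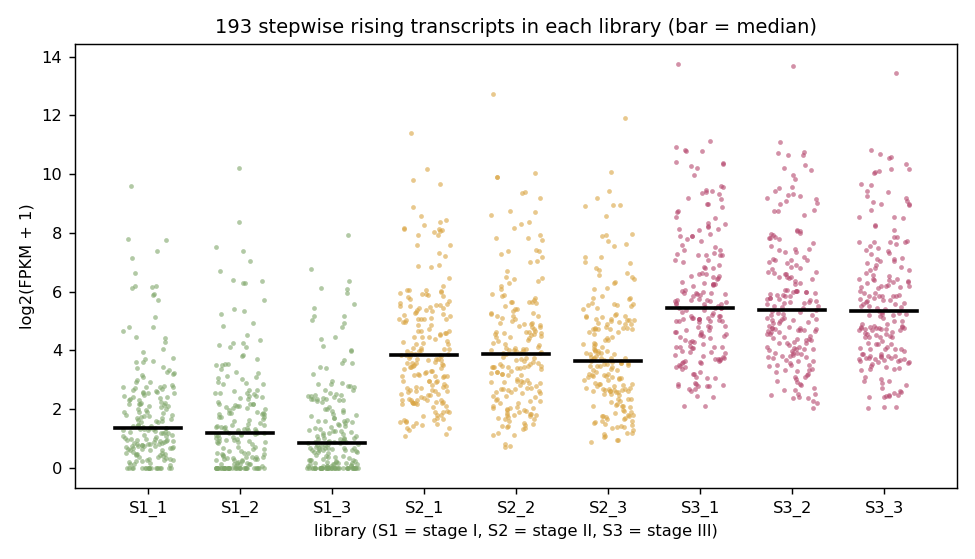
Levels of the 193 stepwise rising transcripts as log2(FPKM + 1) in each of the 9 libraries, 1 point per transcript, with the median as a bar. The medians correspond to 0.77 to 1.56 FPKM at stage I, 11.4 to 13.6 FPKM at stage II and 39.0 to 42.8 FPKM at stage III, and S1_3 has the lowest.

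The first step was larger than the second for 155 of the 193 transcripts (80.3%). The log2 ratio of mean x had a median of 2.14 (range 0.79 to 6.55) for stage II over I and of 1.37 (range 0.81 to 4.55) for stage III over II. Over all 97447 transcripts with reads in any library, many of them near 0 FPKM, the medians were 0.00 for both. For transcripts with a mean of at least 1 FPKM, the median log2 difference was 0.18 for stage II over I. It was -0.02 for stage III over II, both as deposited. With libraries rescaled by TMM or DESeq2 size factors, the difference for stage II over I was 0.10 or 0.08. Its size thus depends on the scaling of the libraries. The share of all transcripts with a larger first step is not given here. For 67 transcripts the first step was larger by over 1 on the log2 scale. These had a median mean FPKM of 1.90 at stage I, 32.7 at stage II and 85.5 at stage III. For 120 transcripts the steps were within 1 of each other, with medians of 1.21, 8.0 and 26.2 FPKM at stages I, II and III. In only 6 transcripts was the second step larger by over 1, and their medians were 0.343, 2.79 and 39.9 FPKM in the same stages.

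**Figure D2:**
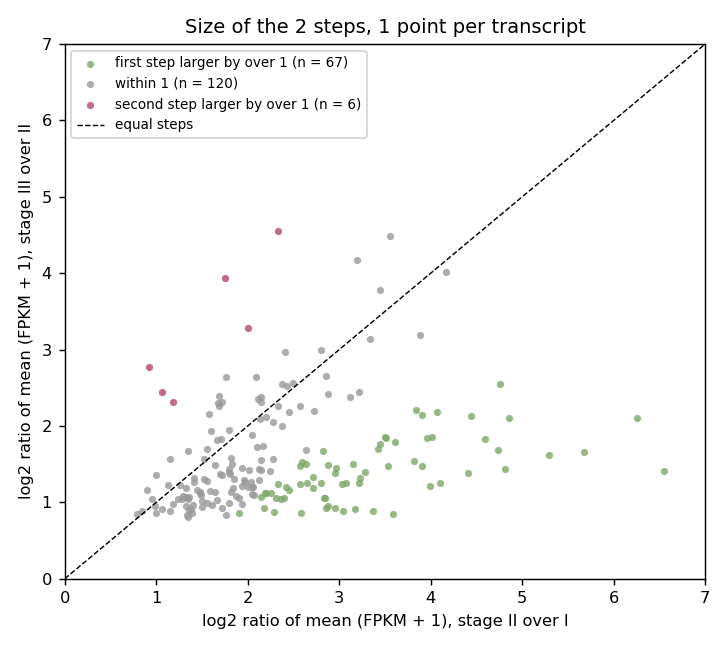
Log2 ratio of mean (FPKM + 1) for stage II over I (x axis) and for stage III over II (y axis), 1 point per transcript, with a dashed line where both are equal. Most points (155 of 193) lie below the line, and 6 lie far above it.

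These 6 transcripts of late increase were clearest at ranks 8 and 24. The transcript of rank 8 had 0.68, 0 and 0.09 FPKM in the stage I libraries, 6.58, 4.36 and 5.08 FPKM at stage II and 152, 135 and 156 FPKM at stage III. Its stage III mean was 27.7 times its stage II mean, and the libraries of a stage lay close together beside this distance. Rank 24 had 0.19, 0 and 0.59 FPKM at stage I, 4.74, 1.72 and 3.29 FPKM at stage II and 49.2, 62.8 and 80.7 FPKM at stage III. Its stage I values rest on 1.79, 0 and 6.12 reads, so a ratio to stage I would depend on few reads. Rank 134 was less even among replicates, with 26.4 FPKM in S3_1 against 8.01 and 12.2 FPKM in S3_2 and S3_3.

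The first rank was held by i1_LQ_HNbud_c253354/f1p3/1319. It had no reads in the 3 libraries of stage I, 40.8, 132 and 53.3 FPKM in those of stage II and 419, 254 and 305 FPKM in those of stage III. S2_2 was the highest of stage II and S3_1 of stage III. Relative to a floor of 3 reads in each library, its level was at least 2318-fold higher at stage III than at stage I. Its counts were not whole numbers, which means that RSEM, the program used for counting, divided some of its reads between similar transcripts, and the absence of reads at stage I depends on that division too. The transcript is 1319 bp long and was built from a single full-length long read.

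Rank 2 had the most similar steps of the leading transcripts. Its FPKM was 6.11, 0 and 1.81 at stage I, 64.6, 59.8 and 68.8 at stage II and 1006, 1004 and 1145 at stage III. The mean was 2.64 ± 3.14 FPKM at stage I, 64.4 ± 4.47 at stage II and 1052 ± 80.7 at stage III (SD, n = 3 each). It was built from 43 full-length long reads, the third highest number in the set. Rank 3 had the largest first step by mean x, although rank 1 had the largest by lowest over highest x. Rank 3 had 4.01, 0.62 and 0.51 FPKM at stage I, 241, 392 and 124 FPKM at stage II and 663, 682 and 669 FPKM at stage III. Its stage II libraries were widely spread and its stage III libraries nearly equal. Rank 4 had whole counts in every library, and whether reads shared with other transcripts were among them is not known. It had 17, 15 and 0 reads at stage I, 538, 946 and 248 at stage II and 2878, 3088 and 3164 at stage III. These reads correspond to 1.39 ± 1.2, 63.6 ± 35.6 and 377 ± 12.5 FPKM at stages I, II and III (SD, n = 3 each).

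Ranks 5 and 6 differed from these by a larger second step. Rank 5 had 3.99, 0 and 0 FPKM at stage I, 32.1, 34.7 and 12.3 FPKM at stage II and 747, 583 and 507 FPKM at stage III. Rank 6 had 4.58, 0.10 and 3.91 FPKM at stage I, 28.3, 28.4 and 46.6 FPKM at stage II and 506, 616 and 797 FPKM at stage III. Both were over 18 times as abundant at stage III as at stage II by their means, with ratios of 23.2 for rank 5 and 18.6 for rank 6.

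Ranks 7, 9 and 10 again had the larger first step. Rank 7 had 1.32, 1.36 and 0 FPKM at stage I, 86.9, 21.0 and 53.2 FPKM at stage II and 272, 230 and 203 FPKM at stage III. Rank 9 had 1.67, 0 and 0.15 FPKM at stage I, 64.2, 88.4 and 33.8 FPKM at stage II and 190, 200 and 187 FPKM at stage III. Rank 10 had 4.48, 0.24 and 0 FPKM at stage I, 149, 165 and 77.2 FPKM at stage II and 430, 437 and 374 FPKM at stage III. In all 3 the stage III libraries were closer to each other, relative to their mean, than those of stage II. Of the 10 transcripts, 5 had no reads in S1_2 and 5 had none in S1_3, while S1_1 was the highest stage I library for 8. The 10 transcripts were 661 to 1319 bp long.

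**Figure D3:**
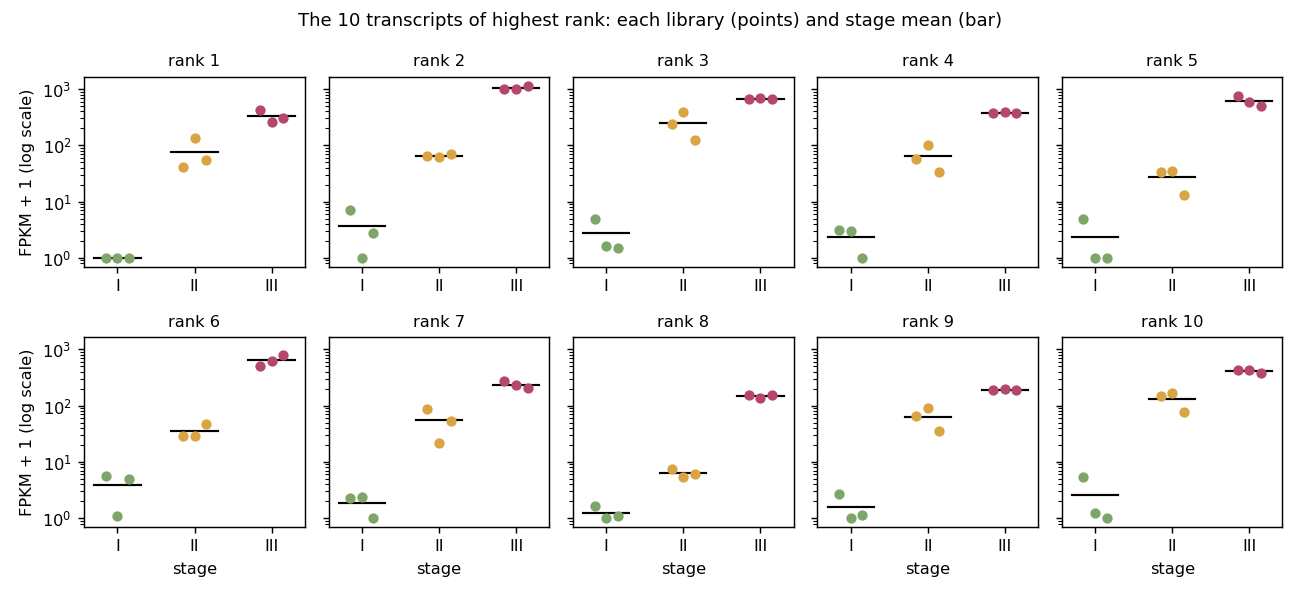
FPKM + 1 on a log scale in each library (points) of stages I, II and III for the transcripts of rank 1 to 10, with the stage mean as a bar. By the rule, each has all stage II libraries above stage I and all stage III libraries above stage II, and the second step is largest at rank 8, where the stage means of FPKM differ 27.7-fold.

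At stage III the most abundant transcript of the set was also the most abundant of all transcripts. This was i0_HQ_HNbud_c26243/f3p6/798, of rank 88, a transcript of 798 bp built from 3 full-length long reads. It had 770, 1187 and 240 FPKM in S1_1, S1_2 and S1_3, 2682, 6731 and 3831 FPKM in the stage II libraries and 13736, 13230 and 11120 FPKM in the stage III libraries. Its means were 732 ± 475 FPKM at stage I, 4415 ± 2087 at stage II and 12695 ± 1388 at stage III (SD, n = 3 each). Its stage III mean was 2.88 times that of stage II and 17.3 times that of stage I. Its mean held position 145 among all transcripts at stage I and position 1 at stages II and III, although another transcript was higher in each single stage II library. It alone held 1.17% ± 0.128 of the summed FPKM of a stage III library (SD, n = 3). These values rest on 130831 to 144906 reads per stage III library, of which some were divided with similar transcripts.

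The next 4 by abundance stood at ranks 97, 92, 154 and 55, with a stage III mean of 2074, 1765, 1633 and 1629 FPKM. Rank 97 had 222, 130 and 9.71 FPKM at stage I, 1166, 1046 and 1077 FPKM at stage II and 2227, 2185 and 1809 FPKM at stage III. Rank 92 had 140, 182 and 32.0 FPKM at stage I, 885, 964 and 690 FPKM at stage II and 1958, 1694 and 1644 FPKM at stage III. Both were already present at stage I, and in both S1_3 was far below its replicates. Rank 154 had 215, 330 and 80.1 FPKM at stage I, 811, 946 and 586 FPKM at stage II and 1751, 1607 and 1540 FPKM at stage III. Rank 55 had 69.1, 103 and 42.4 FPKM at stage I, 375, 664 and 497 FPKM at stage II and 1804, 1600 and 1482 FPKM at stage III. Among the 10 most abundant, S1_3 was the lowest stage I library for 9, S3_1 was the highest stage III library for all 10, and all 10 had counts that were not whole. The 10 were built from 1 to 6 full-length long reads each and held 56.8% of the summed mean FPKM of the set at stage III, while the 100 least abundant held 4.15%.

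The share of the summed FPKM that lay on the 193 transcripts was 0.220% ± 0.0867 at stage I, 1.39% ± 0.278 at stage II and 4.22% ± 0.368 at stage III (SD, n = 3 each). By library it was 0.248, 0.289 and 0.123% at stage I, 1.27, 1.71 and 1.19% at stage II and 4.6, 4.19 and 3.86% at stage III. S1_3 was the lowest and S3_1 the highest of the 9. The rule sets the order of the stages in these shares. Without the most abundant transcript the stage means were 0.152% ± 0.0456, 0.987% ± 0.131 and 3.05% ± 0.256 at stages I, II and III. The stage III share was 6.75% when the set was remade without S2_2, and 4.3% when it was remade without S1_3.

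**Figure D4:**
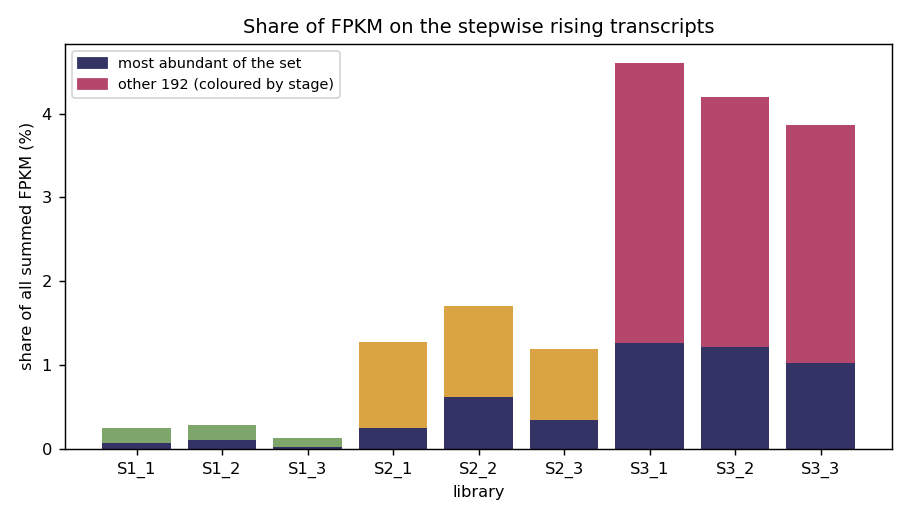
Share of all summed FPKM (%) on the 193 transcripts in each library, with the most abundant transcript (dark) below the other 192 (coloured by stage). The whole bars reach 0.123 to 0.289% at stage I, 1.19 to 1.71% at stage II and 3.86 to 4.6% at stage III.

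Reads at stage I were found in all 3 libraries for 127 of the 193 transcripts, in 2 libraries for 40, in 1 library for 18 and in none for 8. The 8 without reads had a mean of 1.22 to 75.3 FPKM at stage II and of 3.13 to 326 FPKM at stage III. Relative to the same floor they were at least 21.0-fold to at least 2318-fold higher at stage III, and 7 of the 8 had counts that were not whole. Of these, rank 48 had 4.06, 1.16 and 1.97 FPKM at stage II and 27.2, 15.5 and 18.1 FPKM at stage III. Rank 141 was the one with whole counts, with 43, 13 and 13 reads at stage II and 96, 101 and 80 reads at stage III. For 25 transcripts the 3 stage I libraries together held at most 9 reads. The rule leaves no transcript under 1 FPKM at stage III. All 193 had at least 10 reads in each stage III library, where the lowest count was 51.5 reads.

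Where the set was detected at stage I, S1_3 was lower than its replicates. Of the 109 transcripts with a stage I mean of at least 1 FPKM, S1_3 was the lowest of the 3 libraries for 66 (60.6%), against 45.8% of all 48729 transcripts with such a mean. The level in S1_3 was a median 53.4% of the mean of S1_1 and S1_2, against 91.8% over all these transcripts. At stage III, S3_1 was the highest library for 111 of the 193 (57.5%), against 31.1% of all transcripts with a stage III mean of at least 1 FPKM. At stage II, S2_3 was the lowest library for 87 (45.1%), against 30.4% of all. The part of these library differences in the choice of the set was not tested.

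The spread between replicates was smaller at each later stage, but stage I includes S1_3, which stood apart. The chi-square per transcript, not limited to the set, was 15.9 between S1_1 and S1_2. Between stage II libraries it was 16.9, 17.3 and 22.1. Coefficients of variation without S1_3 are not given here. The coefficient of variation of FPKM between the 3 libraries had a median of 72.8% at stage I over the 185 transcripts with reads there, 24.6% at stage II and 13.2% at stage III over the 193. Transcripts with a mean of at least 1 FPKM had 58.4% at stage I for the set (n = 109), against 31.6% for all, and 24.6% at stage II for the set, against 16.9% for all. At stage III the values were 13.2% for the set and 13.5% for all. The rule bounds stage II on both sides, but stage I only from above and stage III only from below. As the set was chosen by these levels, the values are a description of the set only.

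Length and long-read support were not used by the rule. The transcripts had a median length of 1275 bp (quartiles 852 and 1637 bp, range 408 to 4663 bp), against 1654 bp for all transcripts and 1734 bp for all with reads. Lengths under 1000 bp were found for 65 (33.7%), against 13.4% of all with reads, and 7 were under 500 bp. Transcripts that met the first step only had a median of 1467 bp, those that met the second only 1460 bp, and those that met both steps downward 955 bp. The length went with the level. Among transcripts over 50 FPKM in their highest stage, the median was 1001 bp for the set (n = 88) and 977 bp for all (n = 4455). At 5 to 50 FPKM it was 1504 bp for the set (n = 98) and 1562 bp for all (n = 26675).

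The long reads came from RNA of the 3 stages together, and the identifier of a transcript gives the number of full-length reads behind it. At least 2 such reads were behind 48.2% of the set, against 20.05% of all transcripts with reads, and 40 of the 193 had 5 or more. The quality class of the identifier was HQ (high quality after polishing) for 82 (42.5%), against 16.9% of all with reads. These shares went with the level too. Among transcripts over 50 FPKM, 56.8% of the set and 53.4% of all had at least 2 full-length reads, and 48.9% of the set and 46.7% of all were HQ. The most full-length reads, 86, were behind rank 33, which had 1.38, 0.76 and 0.05 FPKM at stage I, 23.3, 11.6 and 17.6 FPKM at stage II and 60.3, 62.2 and 54.5 FPKM at stage III. Rank 37, with 44 full-length reads, had 1.01, 0 and 0 FPKM at stage I, 20.9, 14.6 and 25.4 FPKM at stage II and 44.3, 59.8 and 41.6 FPKM at stage III. Both were moderate in FPKM, while the most abundant transcript had only 3 full-length reads. Fractional counts were present in 1 or more libraries for 177 of the 193 (91.7%), near the 87.7% of all with reads. A fraction in a single library was enough for this, and how many reads were divided between similar transcripts is not known.

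**Figure D5:**
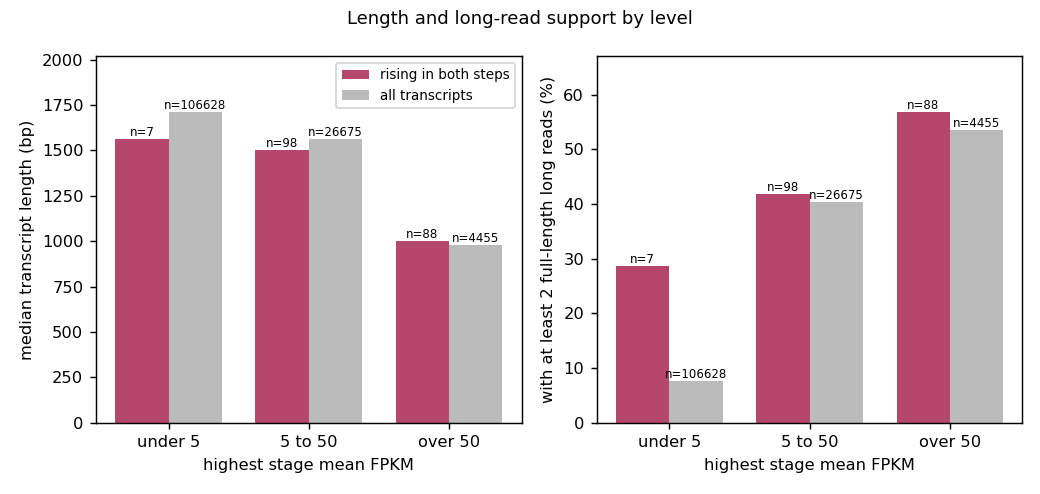
Median length (left, bp) and share with at least 2 full-length long reads (right, %) of the 193 transcripts rising in both steps and of all transcripts, by highest stage mean FPKM, with the number of transcripts above each bar. Over 50 FPKM the set and all transcripts had medians of 1001 and 977 bp and shares of 56.8 and 53.4%.

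At the limit of 1.5, the transcripts inside and outside the set differed little. The smallest first step inside was that of rank 143, at 1.5, with at most 0.78 FPKM at stage I and at least 1.67 FPKM at stage II. The smallest second step inside was that of rank 67, also at 1.5. Its highest stage II value was 8.12 FPKM and its lowest stage III value 12.7 FPKM. Just outside, a transcript had a first step of 2.80 and a second of 1.4957, with 11.9 FPKM at most at stage II and 18.3 FPKM at least at stage III. The smaller of the 2 steps was under 1.6 for 47 of the 193, and another 70 transcripts had both steps at 1.4 or more with at least one of them under 1.5.

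The 26 transcripts of floral genes named by the study give the levels of known regulators beside the set. Of these, 12 met the first step only, 4 met the second only, 10 met neither and 0 met both. Of all 137758 transcripts, 7113 met the first only, 448 the second only and 193 both (0.14%). At so small a share, 0 of 26 is not a contrast between the list and the set. The study chose this list on the same libraries. The first step only was met by, among others, both transcripts of SEP3 and 1 of the 2 of AP1, MADS-box genes of floral organ and meristem identity in Arabidopsis. The second step only was met by both transcripts of PI (petal and stamen identity in Arabidopsis), by NAP and by TEM2, a repressor of flowering in Arabidopsis. NAP and TEM2 did not rise over the whole series by the measure of the rule. Their lowest x of stage III was 0.726 and 0.457 times their highest x of stage I. That highest value was in S1_3 for both, at 16.3 FPKM for NAP (6.83 and 4.95 in S1_1 and S1_2) and 23.4 FPKM for TEM2 (5.73 and 5.66). One PI transcript had 0.16, 0 and 0 FPKM at stage I, 4.02, 0.42 and 0.59 FPKM at stage II and 62.7, 25.4 and 47.7 FPKM at stage III. Its lowest x of stage III was 22.8 times its highest x of stage I, above the upper quartile of 16.3 in the set. It was outside the set because its first step was 1.22, with 2 stage II libraries under 1 FPKM.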

How the data were processed

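Paired RNA-seq reads of the 9 libraries were filtered by the authors with ng_QC, mapped with bowtie2 to their polished long-read transcripts without a genome, and counted with RSEM; versions are not given in the sources used here. The authors deposited expected counts per transcript, fractional values without any scaling, together with the FPKM made from them. Libraries were grouped by the sample titles. The labels do not say whether replicates came from separate plants. Replicates of a stage differed by more than counting error (chi-square per transcript at least 9.7), so each was counted. Precision is limited by 3 libraries per stage, and the floor of 3 reads covers counting error only.

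FPKM was used as deposited with a pseudocount of 1 and no filter. Counts were called whole within 0.005. Lengths and long-read numbers were read from the identifiers. For members, length exceeded the effective length implied by counts and FPKM by a median of 277 bp. The members and lists were chosen with earlier results of these data known. Transcripts described singly were those of rank 1 to 10, the 5 most abundant in stage III, the 3 with the most full-length reads and those at the limit. Ranks 24, 48, 134 and 141 were chosen after their values were seen. Only 2 identifiers are printed, as none is paired with a gene name, and no sequence was used.

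Alternatives were pseudocounts of 0.1 and 5, steps of 1.25 and 2, library scaling by edgeR 4.0.16 (TMM) or DESeq2 1.42.0 size factors, TPM, filters of 1 FPKM in 3 libraries or 10 reads in stage III, stage means, the first 100 ranks, and each library left out. Python 3.11.15, NumPy 2.4.6, pandas 2.3.3, SciPy 1.17.1, Matplotlib 3.10.9 and R 4.3.3 were used. The code that applies the rule was run on simulated counts with planted steps, as a check of the code only. This check gives no error rate of the rule for these libraries, whose replicates differed by more than counting error.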

Additional observations from a re-analysis of the deposited data

How the results depend on the processing

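No paired analysis was possible because the results are counts and medians with no test to block, and the labels do not say that equal replicate numbers at different stages mark shared material. With TMM, DESeq2 size factors or TPM, 180, 173 and 180 transcripts met both steps, and 174, 168 and 177 of the 193 were kept. The filter on FPKM could remove none by construction, and that on reads removed none. DESeq2 size factors moved the median log2 difference of transcripts with a mean of at least 1 FPKM, stage III over I, to 0.07, against 0.18 as deposited.

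The number meeting both steps was 297 and 105 with pseudocounts of 0.1 and 5, 482 with a step below 1.5 and 56 with a step of 2, and 1059 with stage means. Of the 193, 105 met the rule with a pseudocount of 5 and 56 with a step of 2. All 193 meet it with stage means, where 105 of them were among the first 200 by rank. The median log2 ratio of stage III over I (3.69) was 4.87 and 3.52 with pseudocounts of 0.1 and 5, 3.93 and 5.09 with a smaller step and a step of 2, 4.43 with stage means and 4.62 for the first 100 ranks. The stage III share of FPKM (4.22%) was 3.73% with a pseudocount of 0.1, 6.64 and 1.39% with a smaller step and a step of 2, 7.17% with stage means and 3.47% for the first 100 ranks. The first step was larger for 80 transcripts with a pseudocount of 5, 40 with a step of 2 and 76 of the first 100 ranks. The median length was 1094 bp with a pseudocount of 5, 1138.5 and 1107.5 bp with a smaller step and a step of 2, and 1130 bp with stage means and for the first 100 ranks. Lists were smaller with a pseudocount of 5 (105), a step of 2 (56) and 100 ranks by construction.

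With 1 library left out, the number that met both steps could only grow and was 213 to 293. All 193 remained among these, and 155 to 183 of them were among the first 200 by rank. The next values belong to the remade lists, each of the first 200 by rank, and not to the 193. Their median log2 ratio was 3.65 to 3.90 and their stage III share 4.13 to 6.75%. The number with a larger first step was 151 to 167 of 200, and the median length was 1187.5 to 1313 bp. Beyond these differences in construction, the cause of the changes was not tested.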
